A study of Homo sapiens with 22 samples.

Results

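The 43 genes described here are interferon-stimulated genes, which cells transcribe in response to interferons, followed through 11 groups of PC9 cells treated with inhibitors of the epidermal growth factor receptor (EGFR). They were chosen by name, as rows of the deposited expression table whose current or older symbol was on the list, and all 43 were present among the 17165 listed genes. The deposited rows carry Ensembl gene identifiers, to which symbols were assigned, and the identifier of DDX58 has the current symbol RIGI. PC9 is a human non-small cell lung cancer line. It was profiled as GR3 and GR2 cells (the labels' PC9-GR3 and PC9-GR2), as gefitinib-tolerant and WZ4002-tolerant cells, and as the parental line. GR3 and GR2 cells received WZ4002 or vehicle, gefitinib-tolerant cells gefitinib or vehicle, WZ4002-tolerant cells WZ4002 or vehicle, and parental cells WZ4002, gefitinib or vehicle. Every group had 2 libraries and 24 h of treatment, and both drugs were labelled as 1 mM, a unit that the expression values cannot check. Gefitinib is an EGFR kinase inhibitor, and WZ4002 is a covalent inhibitor directed at mutant EGFR. The labels do not say how each derivative was made or whether it is 1 clone or a pool, nor whether a group's libraries are independent cultures. The p-values therefore reflect library-to-library spread that may be only technical.

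Interferons bind receptors on the cell surface whose kinases activate STAT proteins. Type I and III interferons chiefly activate a complex that holds STAT2 and IRF9 and binds interferon-stimulated response elements (ISRE) in promoters, whereas type II interferon acts through STAT dimers that bind gamma-activated sites (GAS). The induced proteins detect viral RNA, block steps of viral entry and translation, attach the ubiquitin-like protein ISG15 to other proteins and alter the proteasome for antigen presentation. Some interferon-stimulated genes can also be switched on by interferon regulatory factors without added interferon.

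Values were deposited as CPM, read counts scaled to a common library size. The steps between low values put the libraries at 23.64 to 49.58 M reads, so that 1 read was worth 0.0202 to 0.0423 CPM, and the listed genes took 54.6% to 64.2% of each library's CPM. Of the 43 genes, 38 reached 1 CPM in at least 2 libraries and were tested with limma, among 15485 genes. OAS2, ISG20, IFI27, IFI44L and XAF1 did not. Changes are given with their standard errors (n = 2 libraries in each group) on the log2(CPM + 1) scale, which understates changes of genes at low levels, and a gene passed the test at an adjusted p under 0.05 across all genes tested. CPM is not corrected for gene length, so levels are compared between groups and not between genes. In bulk RNA, fewer cells expressing a gene and less RNA per cell cannot be told apart. How strand was treated in counting is not stated in the sources used here, so genes that overlap others in the RefSeq annotation, such as EIF2AK2 with GPATCH11, SAMHD1 with TLDC2 and IFITM3 with IFITM3-AS1, may share reads with them.

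The promoters of the genes were examined first, since they carry the sequences through which interferon signals act. RefSeq promoter windows in GRCh38.p14, from 250 bases before to 50 bases after the transcription start (300 bases), were given for 35 of the 43 genes. An ISRE core, searched as GAAANNGAAA on both strands, was present in 21 of these 35 windows (60%), against 1255 of 35116 windows of all genes (3.57%) and 703 of 22198 windows of protein-coding genes (3.17%). A GAS, searched as TTCNNNGAA on both strands, was present in 8 of the 35 windows (22.9%), against 7.66% of all windows and 6.79% of protein-coding windows. A match is a match of letters only. The windows of IFI6, IFITM3, IFIT3, BST2 and PARP14 are shown because they held an ISRE core and these genes carried several of the larger changes described later. Only windows with a core were eligible. IRF1, UBE2L6, PSMB9 and PARP9 also had large changes, and no core was matched in their windows. Each is written 5′ to 3′ on the gene's strand, with ISRE cores in capitals.
IFI6, chr1:27672143-27672442, minus strand: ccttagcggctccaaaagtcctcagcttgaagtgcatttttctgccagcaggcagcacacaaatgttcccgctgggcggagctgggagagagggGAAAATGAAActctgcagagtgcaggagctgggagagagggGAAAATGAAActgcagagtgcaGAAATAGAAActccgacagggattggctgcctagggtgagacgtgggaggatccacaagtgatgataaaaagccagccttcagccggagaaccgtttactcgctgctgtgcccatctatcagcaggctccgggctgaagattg
IFITM3, chr11:320811-321110, minus strand: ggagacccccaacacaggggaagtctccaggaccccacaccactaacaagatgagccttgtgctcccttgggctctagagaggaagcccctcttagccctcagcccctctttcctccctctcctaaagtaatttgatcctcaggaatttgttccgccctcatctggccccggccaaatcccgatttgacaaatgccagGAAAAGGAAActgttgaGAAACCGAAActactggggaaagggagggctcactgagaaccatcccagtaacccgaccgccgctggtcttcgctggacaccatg
IFIT3, chr10:89327747-89328046, plus strand: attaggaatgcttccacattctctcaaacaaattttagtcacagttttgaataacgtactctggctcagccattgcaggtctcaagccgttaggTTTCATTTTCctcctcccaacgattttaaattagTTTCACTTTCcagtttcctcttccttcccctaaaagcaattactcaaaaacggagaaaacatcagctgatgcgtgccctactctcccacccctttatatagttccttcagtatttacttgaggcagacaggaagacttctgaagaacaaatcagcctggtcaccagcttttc
BST2, chr19:17405581-17405880, minus strand: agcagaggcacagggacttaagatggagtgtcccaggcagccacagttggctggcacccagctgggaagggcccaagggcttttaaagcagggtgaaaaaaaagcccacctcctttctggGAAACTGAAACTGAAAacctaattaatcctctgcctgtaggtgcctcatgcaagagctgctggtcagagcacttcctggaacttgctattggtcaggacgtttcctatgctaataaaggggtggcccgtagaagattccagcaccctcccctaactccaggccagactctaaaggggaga
PARP14, chr3:122680589-122680888, plus strand: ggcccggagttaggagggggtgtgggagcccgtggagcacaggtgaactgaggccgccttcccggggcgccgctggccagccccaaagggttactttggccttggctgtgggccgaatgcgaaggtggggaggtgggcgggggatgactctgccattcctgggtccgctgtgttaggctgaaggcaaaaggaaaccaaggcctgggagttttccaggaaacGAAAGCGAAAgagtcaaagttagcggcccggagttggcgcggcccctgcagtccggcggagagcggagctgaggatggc

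IFI6 held 3 cores, whose first bases lay at -156, -115 and -93 from the start. IFITM3 held 2, at -52 and -35, and IFIT3 held 2 on the opposite strand, at -156 and -122, where the capitals are the reverse complement. The 2 cores of BST2, at -130 and -124, overlap each other. PARP14 held 1 core, at -29. No core was matched in the windows of STAT2, IRF1, IRF9, DDX58, ADAR, OAS1, SAMHD1, UBE2L6, HERC6, PARP9, IFI35, XAF1, PSMB8 and PSMB9, and IRF1, IRF9, OAS1 and IFI35 held 1 GAS each. IRF7, DHX58, OAS2, OASL, IFIT2, IFITM2, TRIM22 and USP18 had no entry.

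EGFR inhibition for 24 h raised many of the tested genes in every population and lowered few. With WZ4002, 20 genes rose and 0 fell in GR3 cells, where 12.1% of all genes tested rose and 9.87% fell. In GR2 cells 29 rose and 1 fell, against a background of 27.4% rising and 28.3% falling. In gefitinib-tolerant cells under gefitinib 24 rose and 0 fell, beside 15.2% and 13.6% of all genes tested. WZ4002-tolerant cells under WZ4002 had 19 higher and 0 lower, beside 17% and 15.6%. Parental cells had 25 higher and 2 lower under WZ4002, beside 25.1% and 22.3%, and 24 higher and 2 lower under gefitinib, beside 23.5% and 21.8%. The median change of the tested genes was 0.64 in GR3 cells, 1.19 in GR2 cells, 0.93 in gefitinib-tolerant cells, 0.66 in WZ4002-tolerant cells, 0.83 in parental cells under WZ4002 and 0.71 under gefitinib. The median over all genes tested lay between 0.01 and 0.04 in the same comparisons. Where limma called 0 genes lower, an unadjusted p under 0.05 was reached by 1 falling gene in GR3 cells (USP18), 0 in gefitinib-tolerant cells and 2 in WZ4002-tolerant cells (EIF2AK2 and USP18), and limma-voom called 0 lower in each.

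**Figure D1:**
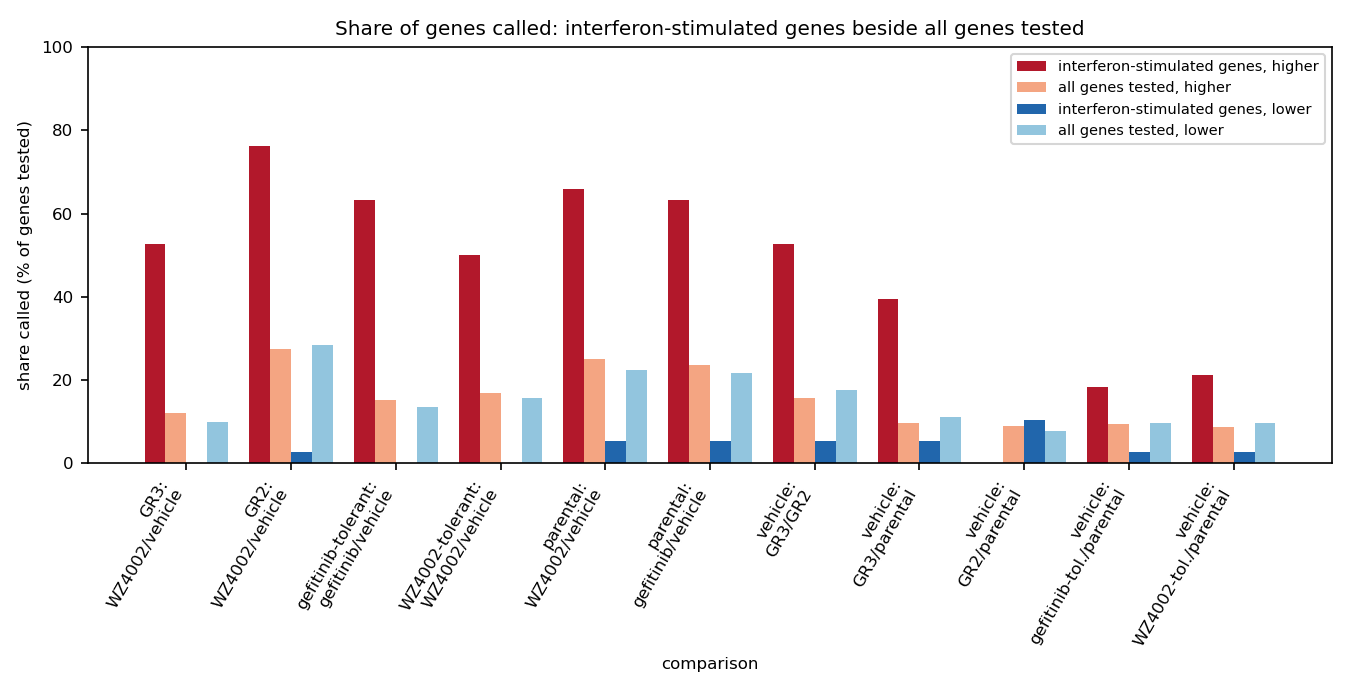
Share of genes passing the test in each comparison (percent of genes tested, vertical axis), for the 38 tested interferon-stimulated genes (dark bars) and all 15485 genes tested (pale bars), higher in red and lower in blue. In the 6 drug comparisons the dark red bars stand at 50% to 76.3%, against 12.1% to 27.4% for all genes.

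Of the called genes, 24 of 30 in GR2 cells, 21 of 26 in parental cells under gefitinib and 20 of 27 under WZ4002 passed whichever library was left out. The vehicle libraries of GR2 cells stand in another run of columns of the deposited table than their WZ4002 libraries, and with a term for the runs of columns the GR2 count of 30 became 26. In the other populations single libraries moved the count by more than 1.5 times. The GR3 count of 20 became 11 without vehicle replicate 1 and 13 without WZ4002 replicate 2, and 9 with the spread estimated from the GR3 libraries alone. The gefitinib-tolerant count of 24 became 14 without gefitinib replicate 2. The WZ4002-tolerant count of 19 became 8 without vehicle replicate 1 and 12 without WZ4002 replicate 1. Genes that passed with every library left out numbered 10 in GR3, 14 in gefitinib-tolerant and 7 in WZ4002-tolerant cells.

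The 5 responses measured in separate libraries (GR3, GR2, both tolerant populations and parental cells under WZ4002) shared 13 genes that rose in all 5, namely DTX3L, HERC6, IFI6, IFIT2, IFIT3, IFITM2, IFITM3, MX1, PARP14, PSMB8, PSMB9, STAT2 and UBE2L6. Over all genes tested, 814 (5.26%) rose in all 5. Among the genes that rose in 4 of the 5 were IRF1, IRF7, IFIH1, DDX58 and ISG15. IRF9, EIF2AK2, OAS3, HERC5, USP18 and IFI44 rose in 0 of the 5. The shares of all genes tested that rose in 4 or in 0 of the 5 were not computed, so these names are descriptive only.

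**Figure D2:**
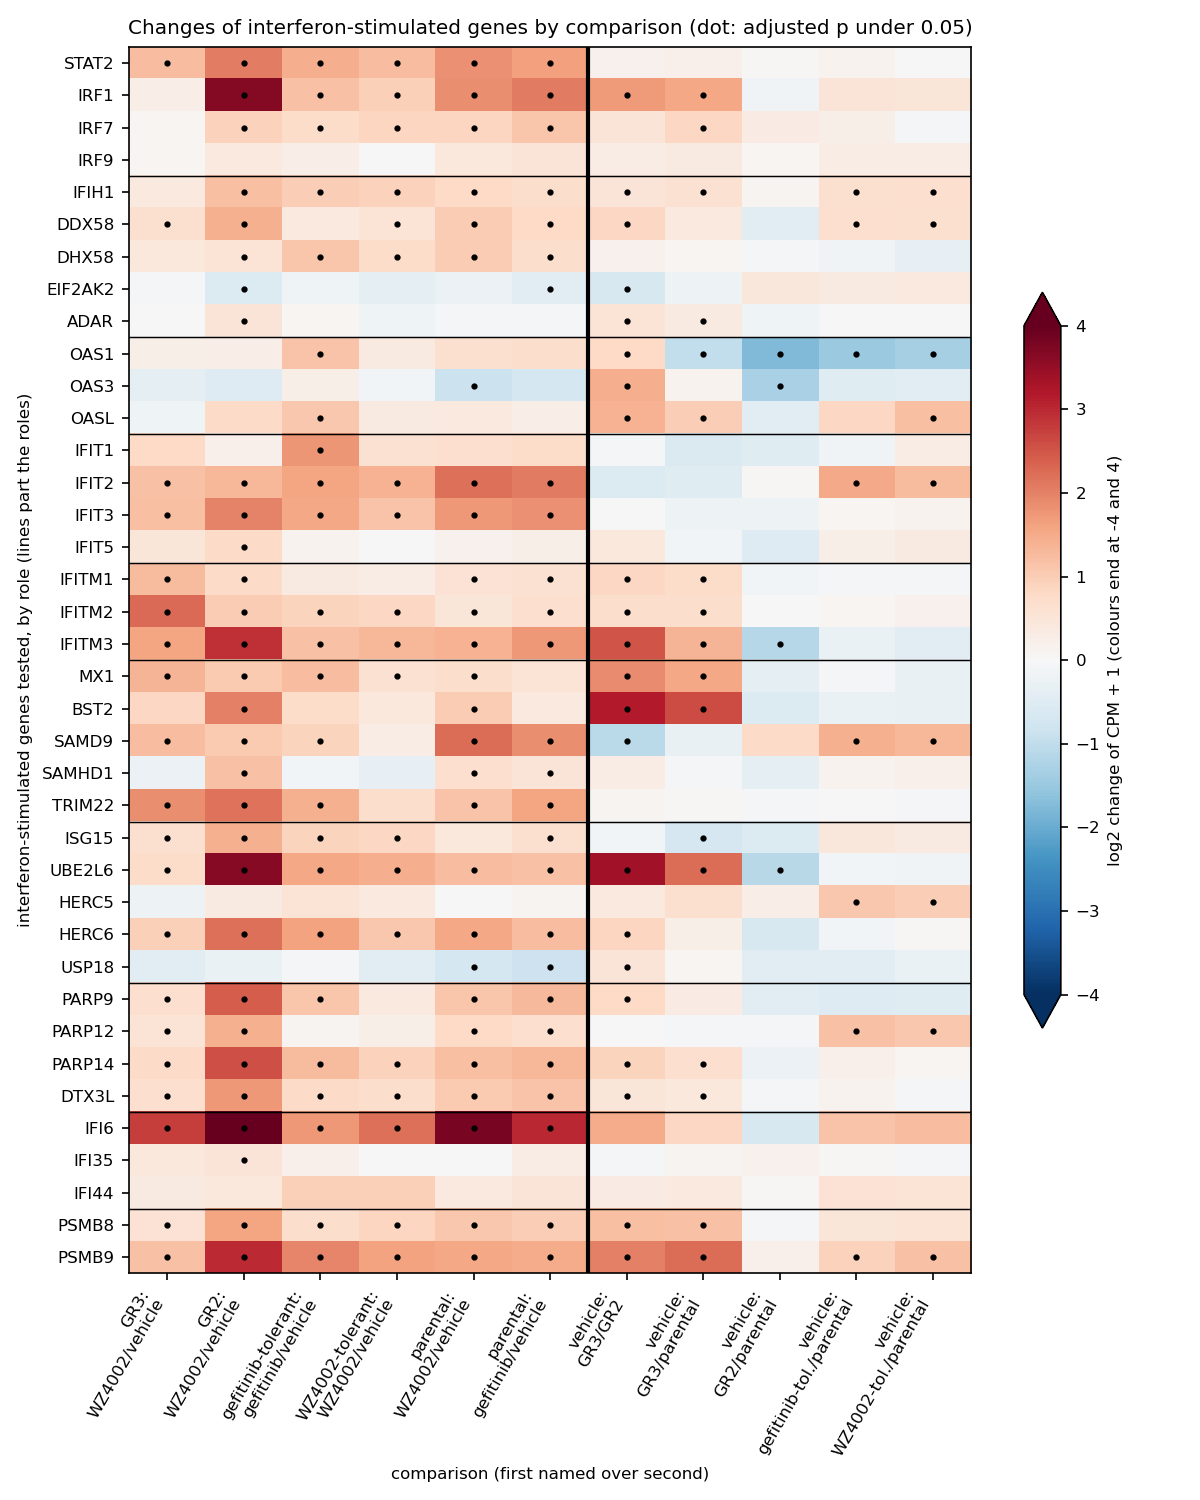
log2 change of CPM + 1 for the 38 tested genes (rows, parted by role) in 6 drug comparisons (left of the thick line) and 5 comparisons between vehicle-treated populations (right), red higher and blue lower in the first-named group, with a dot at an adjusted p under 0.05. IFI6 rises in all 6 drug comparisons, IRF1 rises in 5 and stays pale in GR3, and BST2 and UBE2L6 are darkest red in GR3 over GR2.

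Among the transcription factors, STAT2, the DNA-binding partner in the type I interferon complex, rose with drug in every population. STAT2 had 46.2 and 53.98 CPM in GR3 cells under WZ4002, against 18.8 and 22.8 CPM under vehicle, and 74.9 and 83.8 CPM in GR2 cells under WZ4002, against 19.1 and 17.8 CPM under vehicle. For STAT2, gefitinib-tolerant cells gave 40.4 and 76.96 CPM under gefitinib, against 15.8 and 24.9 CPM under vehicle, and WZ4002-tolerant cells gave 51.6 and 35.4 CPM under WZ4002, against 15.4 and 20.5 CPM under vehicle. Parental STAT2 was 58.4 and 74.2 CPM under WZ4002 and 62.96 and 52.8 CPM under gefitinib, against 18.1 and 17.6 CPM under vehicle. Both drug libraries exceeded both vehicle libraries in each population, and vehicle levels lay close together. The change was 1.23 ± 0.27 (adjusted p = 0.00416) in GR3, 2.05 ± 0.27 (adjusted p = 1.18e-05) in GR2, 1.45 ± 0.27 (adjusted p = 0.00153) in gefitinib-tolerant and 1.22 ± 0.27 (adjusted p = 0.00346) in WZ4002-tolerant cells. For the parental line it was 1.83 ± 0.27 (adjusted p = 7.15e-05) under WZ4002 and 1.64 ± 0.27 (adjusted p = 0.000187) under gefitinib.

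IRF1, a regulator that itself activates many interferon-stimulated genes, had the largest difference in response between GR3 and GR2 cells. IRF1 had 24.6 and 25.2 CPM in GR3 cells under WZ4002, against 18.2 and 23.6 CPM under vehicle, and 81.8 and 87.4 CPM in GR2 cells under WZ4002, against 5.71 and 5.62 CPM under vehicle. For IRF1, gefitinib-tolerant cells gave 24.8 and 21.1 CPM under gefitinib, against 10.51 and 8.61 CPM under vehicle, and WZ4002-tolerant cells gave 21.5 and 16.9 CPM under WZ4002, against 8.69 and 10.1 CPM under vehicle. Parental IRF1 was 22.96 and 29.5 CPM under WZ4002 and 39.7 and 22.5 CPM under gefitinib, against 7.51 and 5.43 CPM under vehicle. The 2 drug-treated GR2 libraries stood far above every other library, while vehicle-treated GR3 libraries already lay near the drug-treated levels of the tolerant populations. The change with drug was 0.26 ± 0.23 (adjusted p = 0.449) in GR3 cells, with an interval of -0.22 to 0.73, and 3.68 ± 0.23 (adjusted p = 9.68e-09) in GR2 cells. It was 1.18 ± 0.23 (adjusted p = 0.00191) in gefitinib-tolerant and 0.95 ± 0.23 (adjusted p = 0.00563) in WZ4002-tolerant cells. In parental cells IRF1 changed by 1.87 ± 0.23 (adjusted p = 1.50e-05) under WZ4002 and 2.06 ± 0.23 (adjusted p = 7.77e-06) under gefitinib. IRF1 passed with every library left out in GR2, gefitinib-tolerant and parental cells, but not in WZ4002-tolerant cells.

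IRF7, which drives interferon genes downstream of viral sensing, had 4.40 and 3.5 CPM in GR3 cells under WZ4002, against 2.96 and 4.45 CPM under vehicle, which overlap. In the other drug comparisons the IRF7 groups did not overlap, and the largest change was 1.11 ± 0.21 (adjusted p = 0.000629) in parental cells under gefitinib. IRF9, the third subunit of the STAT2 complex, ran from 0.19 to 1.41 CPM over all libraries and passed the test in 0 of the 6 drug comparisons.

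**Figure D3:**
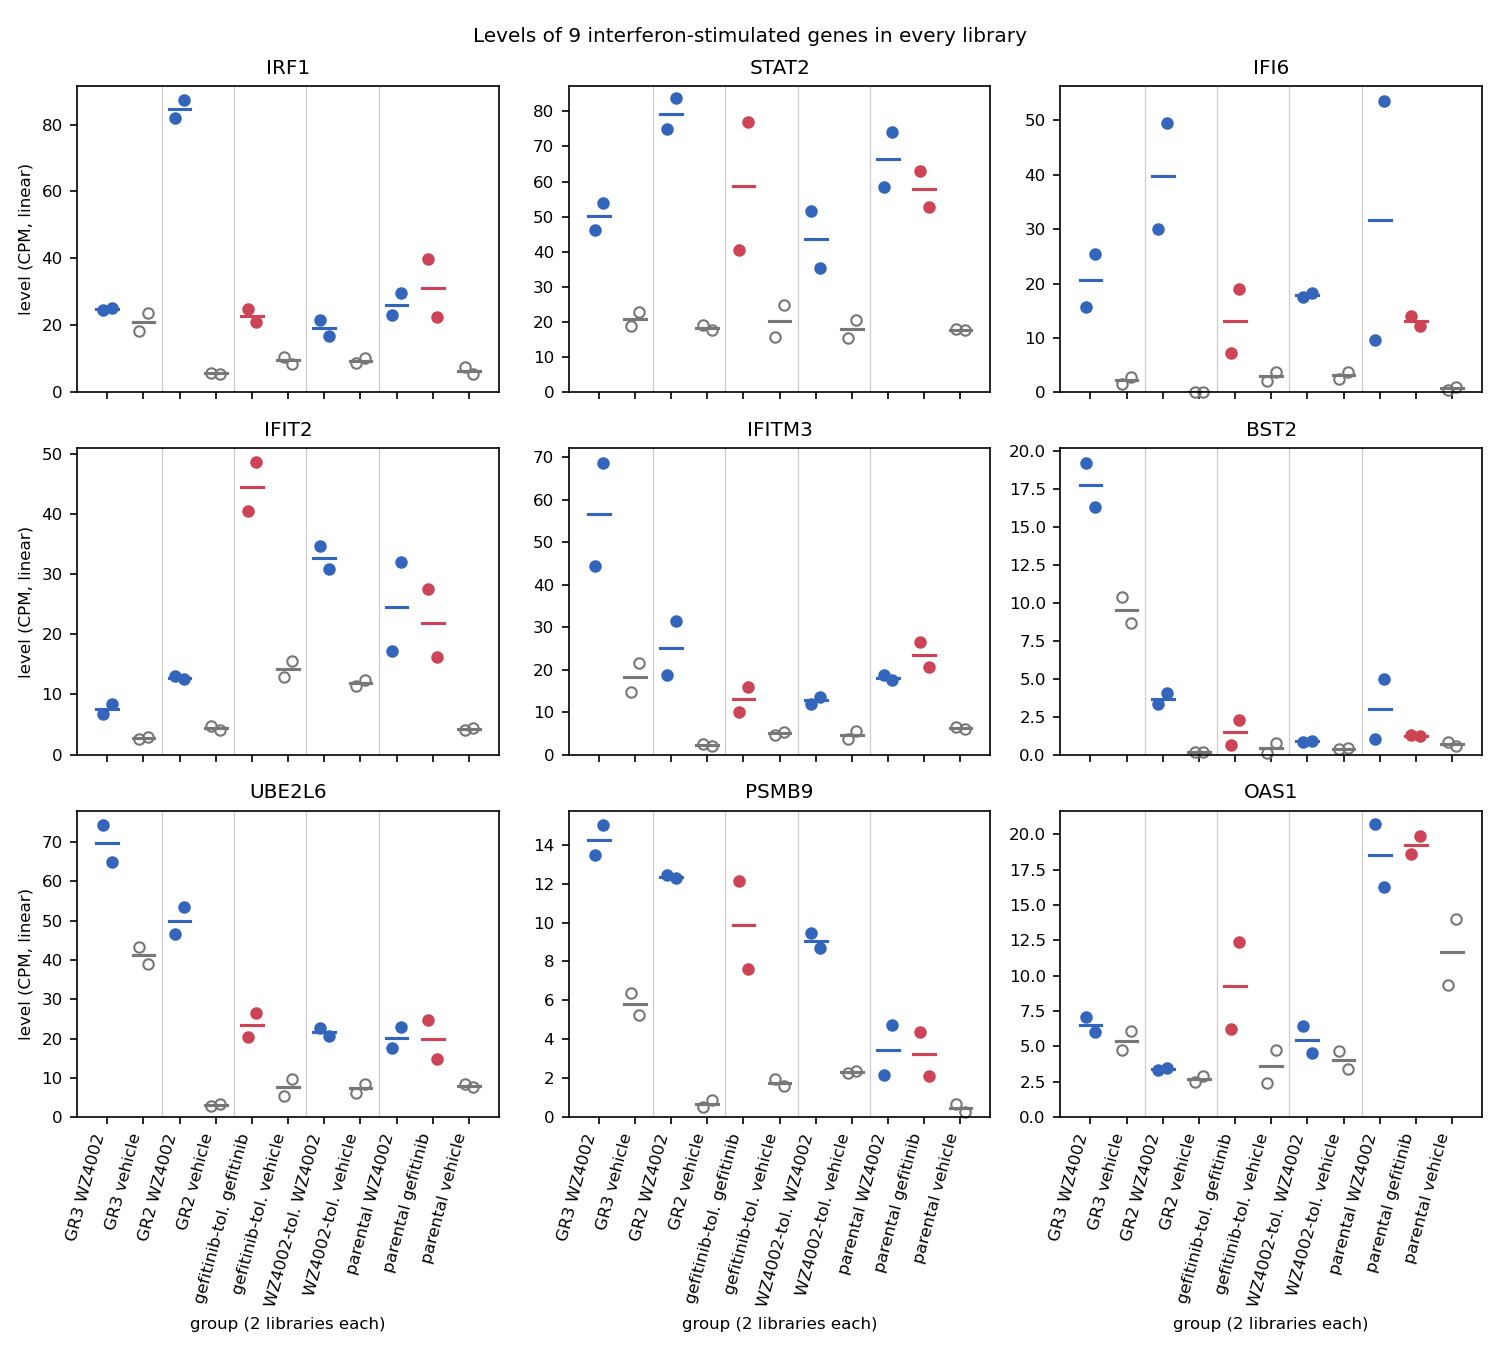
Level in CPM (linear axis from 0) of 9 of the genes in every library, with 2 points and a mean line for each of the 11 groups, filled blue for WZ4002, filled red for gefitinib and open grey for vehicle. IRF1 is highest in WZ4002-treated GR2 cells, at 81.8 and 87.4 CPM, and BST2 and UBE2L6 are higher in GR3 cells under vehicle than in any other vehicle group.

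Of the 5 RNA sensors and RNA-binding enzymes, 4 rose in GR2 cells with WZ4002 and EIF2AK2 fell. IFIH1 encodes MDA5, a sensor of double-stranded RNA. IFIH1 had 6.61 and 5.90 CPM in GR3 cells under WZ4002, against 4.55 and 4.6 CPM under vehicle, and 8.52 and 7.58 CPM in GR2 cells under WZ4002, against 3.17 and 2.70 CPM under vehicle. For IFIH1, gefitinib-tolerant cells gave 9.59 and 10.7 CPM under gefitinib, against 4.79 and 4.57 CPM under vehicle, and WZ4002-tolerant cells gave 10.7 and 9.16 CPM under WZ4002, against 4.37 and 5.17 CPM under vehicle. Parental IFIH1 was 5.54 and 5.14 CPM under WZ4002 and 4.82 and 5.09 CPM under gefitinib, against 2.91 and 2.40 CPM under vehicle. Drug and vehicle libraries of IFIH1 did not overlap in any population, and the change was 0.38 ± 0.14 (adjusted p = 0.069) in GR3, 1.20 ± 0.14 (adjusted p = 5.17e-06) in GR2 and 0.97 ± 0.14 (adjusted p = 0.000497) in gefitinib-tolerant cells. DDX58 encodes RIG-I, the related sensor. DDX58 had 13.6 and 16.2 CPM in GR3 cells under WZ4002, against 8.43 and 9.86 CPM under vehicle, and 15.5 and 13.1 CPM in GR2 cells under WZ4002, against 4.94 and 4.45 CPM under vehicle. For DDX58, gefitinib-tolerant cells gave 13.6 and 16.8 CPM under gefitinib, against 11.04 and 11.7 CPM under vehicle, and WZ4002-tolerant cells gave 16.8 and 16.1 CPM under WZ4002, against 8.99 and 13.3 CPM under vehicle. Parental DDX58 was 14.5 and 14.9 CPM under WZ4002 and 12.6 and 12.02 CPM under gefitinib, against 5.74 and 7.85 CPM under vehicle. Drug libraries of DDX58 exceeded vehicle libraries in every population, with changes of 0.65 ± 0.18 (adjusted p = 0.0184) in GR3 and 1.42 ± 0.18 (adjusted p = 9.56e-06) in GR2 cells. In gefitinib-tolerant cells the change of DDX58 was 0.38 ± 0.18 (adjusted p = 0.12), which missed the threshold. DHX58, another RIG-I-like receptor, ran from 0.45 to 4.31 CPM over all libraries, and its drug libraries exceeded its vehicle libraries in every population.

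EIF2AK2, which encodes the RNA-dependent kinase PKR that halts translation, went the other way. EIF2AK2 had 77.5 and 67.9 CPM in GR3 cells under WZ4002, against 94.8 and 61.4 CPM under vehicle, and 79.1 and 85.7 CPM in GR2 cells under WZ4002, against 123 and 117 CPM under vehicle. For EIF2AK2, gefitinib-tolerant cells gave 93.3 and 106 CPM under gefitinib, against 111 and 115 CPM under vehicle, and WZ4002-tolerant cells gave 95.4 and 81.9 CPM under WZ4002, against 122 and 110.1 CPM under vehicle. Parental EIF2AK2 was 80.3 and 67.3 CPM under WZ4002 and 62.3 and 68.3 CPM under gefitinib, against 87.6 and 87.1 CPM under vehicle. Drug libraries lay below vehicle libraries in every population other than GR3, where the groups overlapped. EIF2AK2 changed by -0.54 ± 0.16 (adjusted p = 0.0103) in GR2 cells and by -0.41 ± 0.16 (adjusted p = 0.0464) in parental cells under gefitinib. Both falls lost the call when some single library was left out. ADAR, which edits adenosine in double-stranded RNA, ran from 151.9 to 260.4 CPM over all libraries and passed in GR2 cells alone among the 6 drug comparisons, by 0.50 ± 0.11 (adjusted p = 0.00119).

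The oligoadenylate synthetase genes, whose products activate the nuclease RNase L, did not rise as a group. OAS1 had 7.08 and 6.0 CPM in GR3 cells under WZ4002, against 4.74 and 6.07 CPM under vehicle, and 3.34 and 3.5 CPM in GR2 cells under WZ4002, against 2.48 and 2.87 CPM under vehicle. For OAS1, gefitinib-tolerant cells gave 6.25 and 12.3 CPM under gefitinib, against 2.41 and 4.76 CPM under vehicle, and WZ4002-tolerant cells gave 6.42 and 4.52 CPM under WZ4002, against 4.65 and 3.37 CPM under vehicle. Parental OAS1 was 20.8 and 16.3 CPM under WZ4002 and 18.6 and 19.9 CPM under gefitinib, against 9.37 and 13.99 CPM under vehicle. Among drug comparisons OAS1 passed the test in gefitinib-tolerant cells alone, where the groups did not overlap and the change was 1.15 ± 0.29 (adjusted p = 0.00883), a call lost when a library was left out. OAS1 libraries of parental cells lay above those of every other population under the same kind of treatment, drug or vehicle. OAS3 had 16.6 and 8.32 CPM in GR3 cells under WZ4002, against 20.4 and 11.4 CPM under vehicle, and 2.77 and 3.75 CPM in GR2 cells under WZ4002, against 5.71 and 4.39 CPM under vehicle. For OAS3, gefitinib-tolerant cells gave 10.6 and 12.4 CPM under gefitinib, against 8.99 and 10.2 CPM under vehicle, and WZ4002-tolerant cells gave 10.9 and 7.89 CPM under WZ4002, against 11.6 and 8.93 CPM under vehicle. Parental OAS3 was 6.95 and 7.34 CPM under WZ4002 and 6.22 and 10.6 CPM under gefitinib, against 12.6 and 15.2 CPM under vehicle. OAS3 lay lower with both drugs in parental cells, without overlap, and the fall passed under WZ4002, -0.87 ± 0.30 (adjusted p = 0.0283), a call lost when a library was left out. OASL is a relative without synthetase activity. OASL had 2.69 and 1.11 CPM in GR3 cells under WZ4002, against 1.89 and 2.49 CPM under vehicle, and 1.14 and 0.92 CPM in GR2 cells under WZ4002, against 0.12 and 0.29 CPM under vehicle. For OASL, gefitinib-tolerant cells gave 3.65 and 6.72 CPM under gefitinib, against 1.43 and 2.38 CPM under vehicle, and WZ4002-tolerant cells gave 4.78 and 2.84 CPM under WZ4002, against 1.96 and 3.60 CPM under vehicle. Parental OASL was 0.67 and 1.68 CPM under WZ4002 and 1.06 and 0.84 CPM under gefitinib, against 0.42 and 0.82 CPM under vehicle. It passed in gefitinib-tolerant cells, where both drug libraries exceeded both vehicle libraries, by 1.06 ± 0.32 (adjusted p = 0.0233), and this call too was lost when a library was left out. OAS2 was not tested and ran from 0.02 to 2.55 CPM, with its highest value in gefitinib-tolerant cells under gefitinib, replicate 2, while replicate 1 of that group had 0.34 CPM.

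IFIT proteins bind viral RNA and restrain its translation, and IFIT2 and IFIT3 rose in each drug comparison. IFIT2 had 6.74 and 8.37 CPM in GR3 cells under WZ4002, against 2.64 and 2.90 CPM under vehicle, and 13.02 and 12.6 CPM in GR2 cells under WZ4002, against 4.76 and 4.16 CPM under vehicle. For IFIT2, gefitinib-tolerant cells gave 40.5 and 48.6 CPM under gefitinib, against 12.9 and 15.5 CPM under vehicle, and WZ4002-tolerant cells gave 34.7 and 30.8 CPM under WZ4002, against 11.4 and 12.3 CPM under vehicle. Parental IFIT2 was 17.2 and 31.9 CPM under WZ4002 and 27.5 and 16.3 CPM under gefitinib, against 4.10 and 4.50 CPM under vehicle. IFIT2 drug and vehicle groups did not overlap in any population, and levels under vehicle were highest in the tolerant populations. The change of IFIT2 was 1.18 ± 0.24 (adjusted p = 0.0033) in GR3, 1.34 ± 0.24 (adjusted p = 0.000264) in GR2, 1.58 ± 0.24 (adjusted p = 0.000602) in gefitinib-tolerant and 1.39 ± 0.24 (adjusted p = 0.000961) in WZ4002-tolerant cells. The parental values were 2.21 ± 0.24 (adjusted p = 7.31e-06) under WZ4002 and 2.07 ± 0.24 (adjusted p = 1.42e-05) under gefitinib. IFIT3 works in a complex with IFIT2 and IFIT1. IFIT3 had 6.35 and 7.16 CPM in GR3 cells under WZ4002, against 2.94 and 1.93 CPM under vehicle, and 13.3 and 11.5 CPM in GR2 cells under WZ4002, against 2.34 and 2.35 CPM under vehicle. For IFIT3, gefitinib-tolerant cells gave 9.75 and 12.2 CPM under gefitinib, against 3.04 and 3.17 CPM under vehicle, and WZ4002-tolerant cells gave 10.5 and 6.65 CPM under WZ4002, against 3.49 and 3.08 CPM under vehicle. Parental IFIT3 was 9.31 and 14.8 CPM under WZ4002 and 15.4 and 10.4 CPM under gefitinib, against 2.91 and 2.84 CPM under vehicle. Groups of IFIT3 did not overlap in any drug comparison, and its changes ran from 1.13 in WZ4002-tolerant to 1.999 in GR2 cells. IFIT1 passed in gefitinib-tolerant cells alone, with 5.88 and 8.61 CPM under gefitinib, against 0.86 and 2.03 CPM under vehicle, a change of 1.78 ± 0.31 (adjusted p = 0.00108), and IFIT5 passed in GR2 cells alone, by 0.78 ± 0.26 (adjusted p = 0.0167). All 4 IFIT genes overlap the annotated span of LIPA, and their values carry that uncertainty.

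IFITM proteins sit in membranes and block fusion of viruses with the cell. IFITM3 had 44.4 and 68.7 CPM in GR3 cells under WZ4002, against 14.8 and 21.5 CPM under vehicle, and 18.8 and 31.5 CPM in GR2 cells under WZ4002, against 2.50 and 2.15 CPM under vehicle. For IFITM3, gefitinib-tolerant cells gave 10.2 and 15.9 CPM under gefitinib, against 4.70 and 5.44 CPM under vehicle, and WZ4002-tolerant cells gave 11.97 and 13.6 CPM under WZ4002, against 3.65 and 5.56 CPM under vehicle. Parental IFITM3 was 18.7 and 17.6 CPM under WZ4002 and 26.5 and 20.5 CPM under gefitinib, against 6.62 and 6.05 CPM under vehicle. The IFITM3 groups did not overlap in any drug comparison, and GR3 libraries under WZ4002 were the highest of all. The change of IFITM3 was 1.57 ± 0.27 (adjusted p = 0.000893) in GR3, 2.93 ± 0.27 (adjusted p = 4.41e-07) in GR2, 1.18 ± 0.27 (adjusted p = 0.00552) in gefitinib-tolerant and 1.32 ± 0.27 (adjusted p = 0.00254) in WZ4002-tolerant cells. In parental cells it was 1.38 ± 0.27 (adjusted p = 0.000771) under WZ4002 and 1.73 ± 0.27 (adjusted p = 0.000148) under gefitinib. IFITM2 had 6.61 and 7.37 CPM in GR3 cells under WZ4002, against 0.51 and 0.86 CPM under vehicle, and 0.82 and 1.40 CPM in GR2 cells under WZ4002, against 0.02 and 0.06 CPM under vehicle. For IFITM2, gefitinib-tolerant cells gave 0.80 and 1.31 CPM under gefitinib, against 0.03 and 0.18 CPM under vehicle, and WZ4002-tolerant cells gave 1.24 and 0.93 CPM under WZ4002, against 0.17 and 0.19 CPM under vehicle. Parental IFITM2 was 0.40 and 0.48 CPM under WZ4002 and 0.68 and 0.63 CPM under gefitinib, against 0.03 and 0.05 CPM under vehicle. Vehicle levels of IFITM2 were within a few reads of 0 in GR2 and parental cells and highest in GR3 cells. The change was 2.25 ± 0.17 (adjusted p = 1.12e-06) in GR3 and 1.01 ± 0.17 (adjusted p = 0.000103) in GR2 cells. IFITM1 had its highest value, 4.11 CPM, in GR3 cells under WZ4002 and changed there by 1.25 ± 0.21 (adjusted p = 0.000714). The 3 genes are related in sequence, so reads may be split among them and each value is uncertain.

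The remaining antiviral effectors included MX1, a dynamin-like GTPase that traps viral nucleocapsids. MX1 had 15.96 and 11.1 CPM in GR3 cells under WZ4002, against 5.32 and 3.96 CPM under vehicle, and 2.48 and 1.82 CPM in GR2 cells under WZ4002, against 0.65 and 0.37 CPM under vehicle. For MX1, gefitinib-tolerant cells gave 3.06 and 3.61 CPM under gefitinib, against 0.68 and 1.03 CPM under vehicle, and WZ4002-tolerant cells gave 1.38 and 1.41 CPM under WZ4002, against 0.72 and 0.42 CPM under vehicle. Parental MX1 was 1.78 and 2.47 CPM under WZ4002 and 1.90 and 1.66 CPM under gefitinib, against 1.30 and 0.60 CPM under vehicle. All libraries of GR3 cells, vehicle included, exceeded all libraries of the other populations for MX1, and the change with drug was 1.35 ± 0.22 (adjusted p = 0.000553) in GR3, 1.06 ± 0.22 (adjusted p = 0.000745) in GR2 and 1.23 ± 0.22 (adjusted p = 0.00128) in gefitinib-tolerant cells. BST2, also called tetherin, holds budding virions at the cell surface. BST2 had 19.2 and 16.3 CPM in GR3 cells under WZ4002, against 10.4 and 8.64 CPM under vehicle, and 3.34 and 4.03 CPM in GR2 cells under WZ4002, against 0.16 and 0.17 CPM under vehicle. For BST2, gefitinib-tolerant cells gave 0.65 and 2.30 CPM under gefitinib, against 0.12 and 0.77 CPM under vehicle, and WZ4002-tolerant cells gave 0.86 and 0.88 CPM under WZ4002, against 0.36 and 0.45 CPM under vehicle. Parental BST2 was 1.04 and 4.98 CPM under WZ4002 and 1.27 and 1.25 CPM under gefitinib, against 0.83 and 0.60 CPM under vehicle. GR3 libraries were again higher than all others, and in gefitinib-tolerant cells the 2 groups overlapped. BST2 changed by 0.84 ± 0.38 (adjusted p = 0.12) in GR3 cells, which missed the threshold, by 2.004 ± 0.38 (adjusted p = 0.000338) in GR2 cells and by 1.03 ± 0.38 (adjusted p = 0.0335) in parental cells under WZ4002, where replicate 2 was the higher library and the call was lost when a library was left out. SAMD9 is a restriction factor for poxviruses. SAMD9 had 7.45 and 5.56 CPM in GR3 cells under WZ4002, against 2.22 and 2.08 CPM under vehicle, and 16.96 and 9.29 CPM in GR2 cells under WZ4002, against 5.95 and 5.31 CPM under vehicle. For SAMD9, gefitinib-tolerant cells gave 13.4 and 24.2 CPM under gefitinib, against 7.80 and 11.04 CPM under vehicle, and WZ4002-tolerant cells gave 13.2 and 9.14 CPM under WZ4002, against 8.19 and 9.38 CPM under vehicle. Parental SAMD9 was 18.1 and 15.9 CPM under WZ4002 and 13.4 and 12.8 CPM under gefitinib, against 1.77 and 4.39 CPM under vehicle. SAMD9 groups overlapped in WZ4002-tolerant cells and in no other population. The change was 2.22 ± 0.32 (adjusted p = 7.00e-05) in parental cells under WZ4002, 1.87 ± 0.32 (adjusted p = 0.000301) under gefitinib and 0.30 ± 0.32 (adjusted p = 0.506) in WZ4002-tolerant cells. TRIM22, an antiviral E3 ubiquitin ligase, ran from 0.03 to 4.28 CPM over all libraries, with drug above vehicle in every population, and its largest change was 2.18 ± 0.29 (adjusted p = 1.70e-05) in GR2 cells. SAMHD1, which depletes nucleotides, ran from 9.81 to 30.3 CPM, with its highest value in GR2 cells under WZ4002, and rose there by 1.17 ± 0.18 (adjusted p = 7.35e-05). The exonuclease gene ISG20 was not tested and ran from 0.04 to 0.69 CPM.

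Among genes of ISG15 conjugation, UBE2L6, the E2 enzyme that carries ISG15, differed widely over populations. UBE2L6 had 74.4 and 65.05 CPM in GR3 cells under WZ4002, against 43.4 and 39.01 CPM under vehicle, and 46.5 and 53.6 CPM in GR2 cells under WZ4002, against 2.82 and 3.44 CPM under vehicle. For UBE2L6, gefitinib-tolerant cells gave 20.4 and 26.6 CPM under gefitinib, against 5.48 and 9.72 CPM under vehicle, and WZ4002-tolerant cells gave 22.7 and 20.6 CPM under WZ4002, against 6.25 and 8.32 CPM under vehicle. Parental UBE2L6 was 17.5 and 22.98 CPM under WZ4002 and 24.8 and 14.7 CPM under gefitinib, against 8.42 and 7.55 CPM under vehicle. GR3 libraries under vehicle exceeded every vehicle library of the other populations, and the drug libraries of every population exceeded their vehicle libraries. UBE2L6 changed by 0.74 ± 0.25 (adjusted p = 0.042) in GR3, 3.63 ± 0.25 (adjusted p = 2.22e-08) in GR2, 1.54 ± 0.25 (adjusted p = 0.000747) in gefitinib-tolerant and 1.46 ± 0.25 (adjusted p = 0.000796) in WZ4002-tolerant cells. Parental UBE2L6 changed by 1.23 ± 0.25 (adjusted p = 0.000925) under WZ4002 and 1.16 ± 0.25 (adjusted p = 0.00148) under gefitinib. The GR3 call was lost when a library was left out. ISG15 itself had 4.57 and 3.48 CPM in GR3 cells under WZ4002, against 2.22 and 2.26 CPM under vehicle, and 9.30 and 7.44 CPM in GR2 cells under WZ4002, against 2.46 and 2.53 CPM under vehicle. The tolerant populations gave the highest ISG15 levels under drug, with 10.49 and 13.6 CPM in gefitinib-tolerant and 9.75 and 11.6 CPM in WZ4002-tolerant cells, against 5.95 and 6.18 CPM and 4.43 and 6.97 CPM under their vehicles. Its change was 1.42 ± 0.19 (adjusted p = 1.96e-05) in GR2 cells and smaller elsewhere, and in parental cells under WZ4002 it was 0.42 ± 0.19 (adjusted p = 0.0809), which missed the threshold. HERC6 is a ligase of the family that attaches ISG15. HERC6 had 9.25 and 15.04 CPM in GR3 cells under WZ4002, against 4.97 and 6.48 CPM under vehicle, and 17.03 and 15.1 CPM in GR2 cells under WZ4002, against 2.42 and 2.93 CPM under vehicle. For HERC6, gefitinib-tolerant cells gave 14.8 and 15.4 CPM under gefitinib, against 4.17 and 4.31 CPM under vehicle, and WZ4002-tolerant cells gave 12.8 and 10.2 CPM under WZ4002, against 4.20 and 5.72 CPM under vehicle. Parental HERC6 was 10.9 and 21.8 CPM under WZ4002 and 13.8 and 10.9 CPM under gefitinib, against 4.66 and 4.69 CPM under vehicle. Its groups did not overlap in any drug comparison, and the change was 2.22 ± 0.26 (adjusted p = 5.05e-06) in GR2 and 1.62 ± 0.26 (adjusted p = 0.000804) in gefitinib-tolerant cells. HERC5, the main human ISG15 ligase, ran from 0.09 to 3.14 CPM over all libraries and passed in 0 of the 6 drug comparisons. USP18, which removes ISG15 and restrains the type I interferon receptor, had 0.46 and 0.73 CPM in parental cells under WZ4002 and 0.42 and 0.52 CPM under gefitinib, against 1.44 and 1.75 CPM under vehicle. USP18 thus lay lower under both drugs without overlap, with changes of -0.70 ± 0.17 (adjusted p = 0.00298) and -0.82 ± 0.17 (adjusted p = 0.00112), and both calls held with every library left out.

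The 4 genes of the PARP and DTX3L group, which add ADP-ribose or ubiquitin to proteins, rose together in GR3, GR2 and parental cells. In GR3 cells PARP9, PARP12 and PARP14 lost the call when some single library was left out, and all 4 lost it with the spread estimated from the GR3 libraries alone. PARP14 had 66.1 and 58.8 CPM in GR3 cells under WZ4002, against 32.6 and 40.7 CPM under vehicle, and 109 and 130.1 CPM in GR2 cells under WZ4002, against 19.2 and 18.8 CPM under vehicle. For PARP14, gefitinib-tolerant cells gave 56.2 and 73.5 CPM under gefitinib, against 26.4 and 26.1 CPM under vehicle, and WZ4002-tolerant cells gave 58.03 and 35.5 CPM under WZ4002, against 22.9 and 24.6 CPM under vehicle. Parental PARP14 was 55.2 and 51.5 CPM under WZ4002 and 67.2 and 49.5 CPM under gefitinib, against 21.4 and 23.5 CPM under vehicle. PARP14 groups did not overlap in any drug comparison, and GR2 cells under WZ4002 were the highest. PARP14 changed by 0.76 ± 0.20 (adjusted p = 0.0134) in GR3, 2.58 ± 0.20 (adjusted p = 7.35e-08) in GR2, 1.26 ± 0.20 (adjusted p = 0.000701) in gefitinib-tolerant and 0.91 ± 0.20 (adjusted p = 0.00369) in WZ4002-tolerant cells. The parental line changed by 1.21 ± 0.20 (adjusted p = 0.000204) under WZ4002 and 1.32 ± 0.20 (adjusted p = 0.00011) under gefitinib. PARP9 works bound to the ubiquitin ligase DTX3L. PARP9 had 30.5 and 31.4 CPM in GR3 cells under WZ4002, against 19.3 and 18.6 CPM under vehicle, and 60.9 and 61.02 CPM in GR2 cells under WZ4002, against 9.82 and 11.4 CPM under vehicle. For PARP9, gefitinib-tolerant cells gave 18.1 and 28.7 CPM under gefitinib, against 8.16 and 12.4 CPM under vehicle, and WZ4002-tolerant cells gave 15.1 and 12.5 CPM under WZ4002, against 10.8 and 9.74 CPM under vehicle. Parental PARP9 was 37.3 and 29.9 CPM under WZ4002 and 44.4 and 31.7 CPM under gefitinib, against 13.5 and 16.3 CPM under vehicle. PARP9 drug libraries exceeded vehicle libraries in every population, with changes of 0.68 ± 0.22 (adjusted p = 0.0351) in GR3 and 2.42 ± 0.22 (adjusted p = 3.32e-07) in GR2 cells, whereas in WZ4002-tolerant cells it was 0.39 ± 0.22 (adjusted p = 0.178). DTX3L ran from 22.6 to 81.9 CPM over all libraries and changed most in GR2 cells, by 1.73 ± 0.14 (adjusted p = 1.38e-07). PARP9 and DTX3L overlap in the genome, so their reads may not be fully separate. PARP12 represses translation. PARP12 had 14.4 and 19.2 CPM in GR3 cells under WZ4002, against 9.64 and 12.8 CPM under vehicle, and 29.4 and 32.7 CPM in GR2 cells under WZ4002, against 12.3 and 9.87 CPM under vehicle. For PARP12, gefitinib-tolerant cells gave 28.8 and 31.8 CPM under gefitinib, against 30.6 and 25.7 CPM under vehicle, and WZ4002-tolerant cells gave 30.6 and 30.6 CPM under WZ4002, against 26.3 and 25.4 CPM under vehicle. Parental PARP12 was 19.5 and 23.3 CPM under WZ4002 and 18.6 and 19.7 CPM under gefitinib, against 11.5 and 12.03 CPM under vehicle. PARP12 groups overlapped in gefitinib-tolerant cells alone, and the largest change was 1.41 ± 0.16 (adjusted p = 3.68e-06) in GR2 cells.

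IFI6, a small membrane protein of the endoplasmic reticulum and mitochondria, had the largest change of the tested genes with drug in GR3, GR2, WZ4002-tolerant and parental cells. IFI6 had 15.7 and 25.5 CPM in GR3 cells under WZ4002, against 1.49 and 2.87 CPM under vehicle, and 30.02 and 49.5 CPM in GR2 cells under WZ4002, against 0.12 and 0.11 CPM under vehicle. For IFI6, gefitinib-tolerant cells gave 7.18 and 19.1 CPM under gefitinib, against 2.11 and 3.78 CPM under vehicle, and WZ4002-tolerant cells gave 17.6 and 18.3 CPM under WZ4002, against 2.49 and 3.76 CPM under vehicle. Parental IFI6 was 9.70 and 53.6 CPM under WZ4002 and 14.1 and 12.1 CPM under gefitinib, against 0.50 and 1.04 CPM under vehicle. IFI6 vehicle libraries were lowest in GR2 cells, near the worth of a few reads, and replicate 2 of parental cells under WZ4002 was well above replicate 1. No drug library overlapped the vehicle libraries of its population. IFI6 changed by 2.76 ± 0.56 (adjusted p = 0.00274) in GR3, 5.15 ± 0.56 (adjusted p = 1.96e-06) in GR2, 1.73 ± 0.56 (adjusted p = 0.0297) in gefitinib-tolerant and 2.22 ± 0.56 (adjusted p = 0.00776) in WZ4002-tolerant cells. In parental cells it changed by 3.79 ± 0.56 (adjusted p = 7.83e-05) under WZ4002 and 3.01 ± 0.56 (adjusted p = 0.000534) under gefitinib. The calls of both tolerant populations were lost when a library was left out. IFI35 is a partner of NMI in interferon signalling. IFI35 had 10.7 and 8.70 CPM in GR3 cells under WZ4002, against 6.67 and 7.29 CPM under vehicle, and 11.1 and 10.1 CPM in GR2 cells under WZ4002, against 7.12 and 7.23 CPM under vehicle. For IFI35, gefitinib-tolerant cells gave 6.90 and 8.33 CPM under gefitinib, against 6.28 and 6.74 CPM under vehicle, and WZ4002-tolerant cells gave 6.07 and 6.15 CPM under WZ4002, against 7.19 and 5.17 CPM under vehicle. Parental IFI35 was 6.34 and 6.12 CPM under WZ4002 and 7.49 and 8.43 CPM under gefitinib, against 5.74 and 6.95 CPM under vehicle. It changed in GR2 cells, where the groups did not overlap, by 0.50 ± 0.16 (adjusted p = 0.0146), and passed in 0 of the other drug comparisons. IFI44 ran from 0.08 to 4.70 CPM and passed in 0 of the 6 drug comparisons. The untested IFI27 ran from 0.03 to 0.26 CPM, IFI44L from 0.03 to 0.88 CPM and XAF1 from 0.02 to 0.96 CPM. IFI44L and XAF1 had their highest values in gefitinib-tolerant cells under gefitinib, replicate 2.

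The immunoproteasome subunits PSMB8 and PSMB9 replace constitutive subunits and change the peptides made for presentation. PSMB9 had 13.4 and 15.01 CPM in GR3 cells under WZ4002, against 6.39 and 5.23 CPM under vehicle, and 12.4 and 12.3 CPM in GR2 cells under WZ4002, against 0.50 and 0.86 CPM under vehicle. For PSMB9, gefitinib-tolerant cells gave 12.1 and 7.60 CPM under gefitinib, against 1.94 and 1.61 CPM under vehicle, and WZ4002-tolerant cells gave 9.44 and 8.68 CPM under WZ4002, against 2.24 and 2.38 CPM under vehicle. Parental PSMB9 was 2.14 and 4.71 CPM under WZ4002 and 4.36 and 2.09 CPM under gefitinib, against 0.69 and 0.25 CPM under vehicle. PSMB9 groups did not overlap in any drug comparison, and the drug libraries of GR3 and GR2 cells were among the highest. PSMB9 changed by 1.17 ± 0.29 (adjusted p = 0.00944) in GR3, 2.999 ± 0.29 (adjusted p = 6.11e-07) in GR2, 1.94 ± 0.29 (adjusted p = 0.000506) in gefitinib-tolerant and 1.60 ± 0.29 (adjusted p = 0.00106) in WZ4002-tolerant cells. In parental cells it changed by 1.54 ± 0.29 (adjusted p = 0.000497) under WZ4002 and 1.49 ± 0.29 (adjusted p = 0.000726) under gefitinib. PSMB8 had 48.7 and 53.7 CPM in GR3 cells under WZ4002, against 29.9 and 38.5 CPM under vehicle, and 47.3 and 40.9 CPM in GR2 cells under WZ4002, against 13.96 and 14.2 CPM under vehicle. For PSMB8, gefitinib-tolerant cells gave 33.2 and 34.5 CPM under gefitinib, against 23.8 and 17.8 CPM under vehicle, and WZ4002-tolerant cells gave 44.02 and 36.1 CPM under WZ4002, against 19.4 and 23.8 CPM under vehicle. Parental PSMB8 was 26.7 and 37.1 CPM under WZ4002 and 35.3 and 24.96 CPM under gefitinib, against 15.7 and 13.4 CPM under vehicle. PSMB8 groups did not overlap in any drug comparison, with changes of 0.58 ± 0.20 (adjusted p = 0.0476) in GR3 and 1.58 ± 0.20 (adjusted p = 9.37e-06) in GR2 cells. The GR3 calls of both subunits were lost when a library was left out, and PSMB8 overlaps the antisense gene PSMB8-AS1.

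In the parental line, WZ4002 was set against gefitinib at the same labelled dose and time. None of the 38 tested genes differed, in either direction, by limma's adjusted p, 0 reached an unadjusted p under 0.05, and limma-voom called 0, with 0% of all genes tested called in either direction. The lowest adjusted p among the 38 was 0.999. The 95% intervals of the WZ4002-minus-gefitinib differences differed in width between genes. For ADAR the interval was -0.24 to 0.22, and the outermost bounds over the 38 genes were -1.13 and 1.96, so that responses alike in size were not shown. STAT2 differed by 0.19 ± 0.27 (adjusted p = 0.999), IFIT2 by 0.14 ± 0.24 (adjusted p = 0.999) and IFI6 by 0.78 ± 0.56 (adjusted p = 0.999). Without WZ4002 replicate 1, 2 genes were called.

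The populations also differed under vehicle, and GR3 cells stood apart from both GR2 and parental cells. In vehicle-treated GR3 cells 20 genes were higher and 2 lower than in GR2 cells, where 15.6% of all genes tested were higher and 17.5% lower, and the median change was 0.51, against -0.02 over all genes. The largest was UBE2L6, at 43.4 and 39.01 CPM in GR3 cells, against 2.82 and 3.44 CPM in GR2 cells, a change of 3.36 ± 0.25 (adjusted p = 1.41e-07). BST2 had 10.4 and 8.64 CPM in GR3 cells, against 0.16 and 0.17 CPM in GR2 cells, a change of 3.17 ± 0.38 (adjusted p = 1.28e-05). For both genes the libraries of the 2 lines lay far apart. IFITM3 differed by 2.51 ± 0.27 (adjusted p = 5.70e-06), PSMB9 by 2.02 ± 0.29 (adjusted p = 6.68e-05), MX1 by 1.90 ± 0.22 (adjusted p = 9.64e-06) and IRF1 by 1.70 ± 0.23 (adjusted p = 3.62e-05). OAS3 differed by 1.44 ± 0.30 (adjusted p = 0.00192), again without overlap. The 2 genes that were lower in GR3 cells were SAMD9 and EIF2AK2, without overlap. SAMD9 differed by -1.07 ± 0.32 (adjusted p = 0.0176) and EIF2AK2 by -0.65 ± 0.16 (adjusted p = 0.00598), and both calls were lost in at least 1 omission of a library. Of the 22 calls, 13 held with every library left out. The GR2 and GR3 vehicle libraries stand in different runs of columns, and with a term for these runs 16 genes were called. ADAR, DTX3L, IFIH1, IFITM1, OAS1, OAS3, PARP9 and PARP14 then lost their calls.

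Set against parental cells, vehicle-treated GR3 cells had 15 genes higher and 2 lower, beside 9.77% and 11.1% of all genes tested. BST2 had 10.4 and 8.64 CPM in GR3 cells, against 0.83 and 0.60 CPM in parental cells, a change of 2.61 ± 0.38 (adjusted p = 0.00016). UBE2L6 had 43.4 and 39.01 CPM in GR3 cells, against 8.42 and 7.55 CPM in parental cells, a change of 2.23 ± 0.25 (adjusted p = 1.57e-05). PSMB9, IRF1 and MX1 were also higher in GR3 cells without overlap, by 2.22, 1.55 and 1.54. The 2 lower genes were OAS1, by -0.97 ± 0.29 (adjusted p = 0.0253), and ISG15, at 2.22 and 2.26 CPM in GR3 cells, against 3.63 and 4.66 CPM in parental cells, a change of -0.66 ± 0.19 (adjusted p = 0.0232). The count of 17 became 10 without GR3 vehicle replicate 2, 11 without parental vehicle replicate 1, 9 without parental vehicle replicate 2 and 7 with the spread of these groups alone. BST2, IFITM3, IRF1, MX1, PSMB8, PSMB9 and UBE2L6 held with every library left out.

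GR2 cells under vehicle had 0 genes higher and 4 lower than parental cells, beside 8.98% and 7.76% of all genes tested. Limma found 2 genes higher at an unadjusted p under 0.05, EIF2AK2 and SAMD9, and limma-voom called 0 higher. The lower genes were OAS1, at 2.48 and 2.87 CPM in GR2 cells, against 9.37 and 13.99 CPM in parental cells, and OAS3, IFITM3 and UBE2L6. No library of GR2 cells overlapped a parental library for any of the 4, and they changed by -1.76 ± 0.29 (adjusted p = 0.000834) for OAS1, -1.30 for OAS3, -1.14 for IFITM3 and -1.12 for UBE2L6. The count became 2 without either GR2 vehicle library and 11 with the spread of these groups alone, and OAS1 passed with every library left out. Both GR2 vehicle libraries stand in a run of columns of the deposited table that holds neither parental vehicle library, and whether that order reflects a technical grouping was not tested. The same holds for each comparison that uses them. With a term for the runs of columns, 4 genes were called in GR2 against parental cells, and OAS3 was no longer among them, at -1.10 (adjusted p = 0.141 for OAS3 GR2 vs parental).

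The tolerant populations under vehicle differed from parental cells in 8 and 9 of the 38 tested genes, most of them higher. In gefitinib-tolerant cells 7 genes were higher and 1 lower, beside 9.39% and 9.64% of all genes tested. In WZ4002-tolerant cells 8 were higher and 1 lower, beside 8.72% and 9.73%. IFIT2 had 12.9 and 15.5 CPM in gefitinib-tolerant cells and 11.4 and 12.3 CPM in WZ4002-tolerant cells, against 4.10 and 4.50 CPM in parental cells. PARP12 had 30.6 and 25.7 CPM in gefitinib-tolerant cells and 26.3 and 25.4 CPM in WZ4002-tolerant cells, against 11.5 and 12.03 CPM in parental cells. Neither tolerant population overlapped parental cells for these genes, and both calls held with every library left out in each comparison. IFIT2 changed by 1.51 ± 0.24 (adjusted p = 0.000595) and 1.28 ± 0.24 (adjusted p = 0.00214), and PARP12 by 1.19 ± 0.16 (adjusted p = 0.000164) and 1.07 ± 0.16 (adjusted p = 0.000431). OAS1 was lower, at 2.41 and 4.76 CPM in gefitinib-tolerant cells and 4.65 and 3.37 CPM in WZ4002-tolerant cells, against 9.37 and 13.99 CPM in parental cells, with changes of -1.49 ± 0.29 (adjusted p = 0.00219) and -1.33 ± 0.29 (adjusted p = 0.00507). These comparisons share the parental vehicle libraries. The gefitinib-tolerant count of 8 became 5 without its vehicle replicate 1 or parental vehicle replicate 1. The WZ4002-tolerant count of 9 became 5 without parental vehicle replicate 2 and 3 without its vehicle replicate 2.

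The sizes of the WZ4002 responses were then compared between populations. The response of GR3 cells was smaller than that of GR2 cells for 12 genes and larger for 1, beside 6.8% and 6.78% of all genes tested. The median difference was -0.78, against 0.02 over all genes. IRF1 differed most, by -3.43 ± 0.32 (adjusted p = 1.57e-05), followed by UBE2L6 at -2.88 ± 0.35 (adjusted p = 0.000105). For both, GR3 cells started from higher vehicle levels. UBE2L6 also reached a higher level under WZ4002 in GR3 than in GR2 cells, whereas IRF1 under WZ4002 was lower in GR3 than in GR2 cells, with no overlap in either case. PSMB9 differed by -1.83 ± 0.41 (adjusted p = 0.00747), PARP14 by -1.82 ± 0.28 (adjusted p = 0.000641), PARP9 by -1.74 ± 0.31 (adjusted p = 0.00173) and DTX3L by -1.07 ± 0.20 (adjusted p = 0.00275). All 4 genes of the PARP and DTX3L group and both immunoproteasome subunits had the smaller response in GR3 cells. SAMHD1 differed by -1.41 ± 0.26 (adjusted p = 0.00226), with 12.2 and 9.81 CPM in GR3 cells under WZ4002, against 15.4 and 11.2 CPM under vehicle, and 20.7 and 30.3 CPM in GR2 cells under WZ4002, against 10.99 and 10.2 CPM under vehicle. The larger response was that of IFITM2, by 1.24 ± 0.23 (adjusted p = 0.00253). For the IFITM2 response GR3 minus GR2, limma-voom on recovered reads gave -1.203 (adjusted p = 0.308), so its direction depends on the method. Without GR2 vehicle replicate 2 the count of 13 became 8, and 8 genes held with every library left out. With a term for the runs of columns 14 were called.

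**Figure D4:**
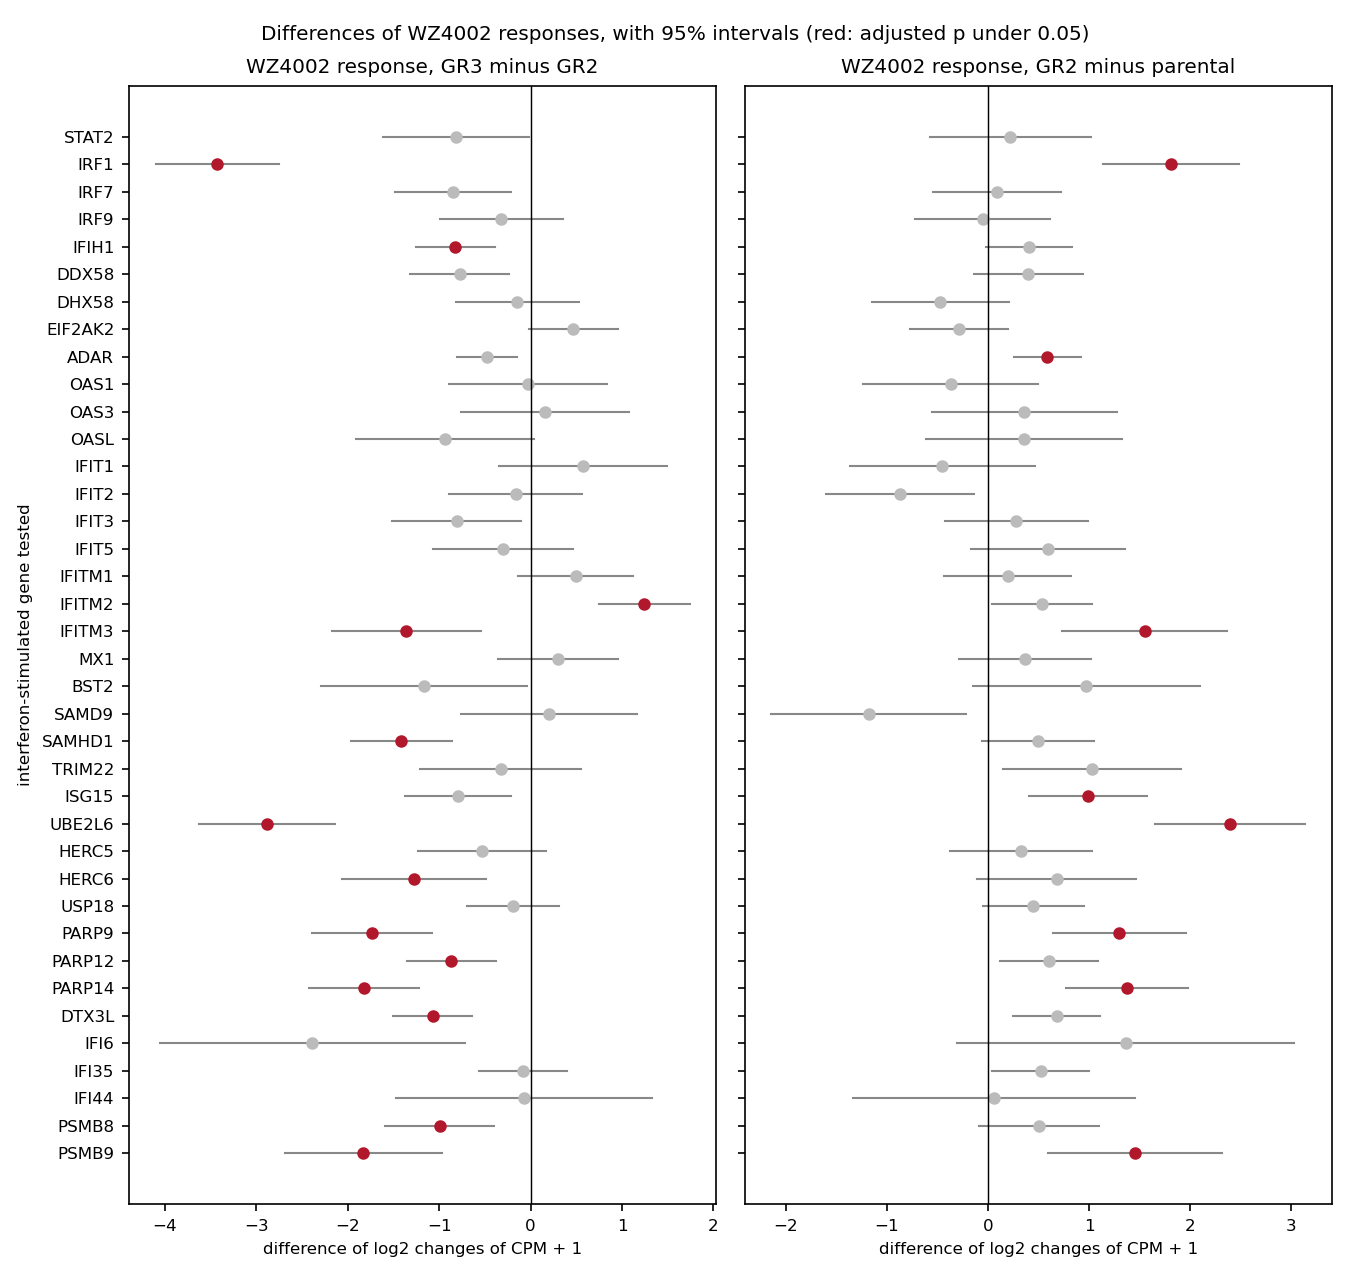
Difference of log2 changes with WZ4002 (horizontal axis, log2 of CPM + 1) for the 38 tested genes (rows), with 95% intervals, GR3 minus GR2 on the left and GR2 minus parental on the right, red at an adjusted p under 0.05. IRF1 and UBE2L6 lie farthest from 0 among the called genes in both panels, at -3.43 and -2.88 on the left and 1.81 and 2.40 on the right.

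Compared with parental cells, GR2 cells responded to WZ4002 more strongly for 8 genes and less for 0, beside 3.34% and 3.45% of all genes tested. By limma 2 genes were less responsive at an unadjusted p under 0.05, IFIT2 and SAMD9, and limma-voom called 0. The 8 were IRF1, ADAR, IFITM3, ISG15, UBE2L6, PARP9, PARP14 and PSMB9. UBE2L6 differed by 2.40 ± 0.35 (adjusted p = 0.000998), IRF1 by 1.81 ± 0.32 (adjusted p = 0.00385), IFITM3 by 1.55 ± 0.38 (adjusted p = 0.0248) and PARP14 by 1.38 ± 0.28 (adjusted p = 0.00923). IRF1 vehicle levels were close in GR2 and parental cells, while UBE2L6 and IFITM3 started lower in GR2 cells. The count became 3 without GR2 vehicle replicate 1, GR2 WZ4002 replicate 2 or parental vehicle replicate 2, and 4 without GR2 vehicle replicate 2, GR2 WZ4002 replicate 1 or parental vehicle replicate 1. IRF1, PARP14 and UBE2L6 held with every library left out. With a term for the runs of columns in the deposited table the count also became 3, and IRF1, at 1.70 (adjusted p = 0.0796), and PARP14, at 0.85 (adjusted p = 0.263), were no longer called in the response GR2 minus parental.

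GR3 cells differed from parental cells in their WZ4002 response for 1 gene upward and 1 downward, beside 0.633% and 0.659% of all genes tested. IFITM2 responded more, by 1.78 ± 0.23 (adjusted p = 0.00163), and IRF1 less, by -1.61 ± 0.32 (adjusted p = 0.0212). The IFITM2 call was lost with a pseudocount of 0.1, at 1.26 (adjusted p = 0.277), and by limma-voom on recovered reads, at 0.28 (adjusted p = 0.883), so the size of the IFITM2 response GR3 minus parental depends on the 1 CPM added to low values. The IRF1 call was lost when a library was left out, and the count became 6 without parental WZ4002 replicate 1. With the spread of these groups alone it was 0, so that neither call held. WZ4002-tolerant cells responded less than parental cells for 2 genes and more for 0, beside 2.4% and 2.1% of all genes tested, with 0 larger responses at an unadjusted p under 0.05 by limma and 0 by limma-voom. SAMD9 differed by -1.92 ± 0.45 (adjusted p = 0.0257) and SAMHD1 by -1.004 ± 0.26 (adjusted p = 0.0396). The count ran from 0 to 4 with single libraries left out, and neither gene held throughout. Gefitinib responses of gefitinib-tolerant and parental cells differed for 0 genes by limma, beside 2% of all genes tested in either direction together. At an unadjusted p under 0.05, 8 genes differed, limma-voom called 0, and the lowest adjusted p was 0.127, for USP18. The intervals of these 38 differences reached from -2.94 to 1.96, so responses alike in size were not shown, and 1 gene was called without parental gefitinib replicate 2.

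Other genes of the pathway were followed from lists chosen beside the 43. Of 9 genes for interferons themselves, 0 were among the listed genes. Of 9 receptor and kinase genes tested, 0 rose and 1 fell with WZ4002 in GR3 cells, beside 12.1% of all genes tested rising and 9.87% falling, and 7 rose and 0 fell in GR2 cells, beside 27.4% and 28.3%. IFNAR2, a subunit of the type I interferon receptor, changed by 1.497 ± 0.16 (adjusted p = 1.46e-06) in GR2 cells, and its response was smaller in GR3 than in GR2 cells, by -1.26 ± 0.22 (adjusted p = 0.00163). The receptor gene that fell in GR3 cells was IFNGR2, a subunit of the interferon gamma receptor, by -0.64 ± 0.15 (adjusted p = 0.00755). Both tolerant populations had 3 of the 9 higher and 0 lower with drug. Parental cells had 7 higher and 1 lower under WZ4002 and 6 higher and 1 lower under gefitinib. Of all genes tested, 15.2% rose and 13.6% fell in gefitinib-tolerant cells, and 17% rose and 15.6% fell in WZ4002-tolerant cells. Parental cells had 25.1% rising and 22.3% falling under WZ4002, and 23.5% and 21.8% under gefitinib.

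Of 15 antigen presentation genes tested beside the immunoproteasome pair, 12 rose with WZ4002 in GR3 cells and 0 fell, and 13 rose in GR2 cells and 1 fell. Of all genes tested, 12.1% rose and 9.87% fell in GR3 cells, and 27.4% rose and 28.3% fell in GR2 cells. In gefitinib-tolerant cells 12 rose and 0 fell, beside 15.2% and 13.6% of all genes tested. In WZ4002-tolerant cells 11 rose and 0 fell, beside 17% and 15.6%. In parental cells 13 rose and 1 fell under each drug, beside 25.1% and 22.3% under WZ4002 and 23.5% and 21.8% under gefitinib. TAPBP, which loads peptides onto class I molecules, changed by 2.17 ± 0.15 (adjusted p = 1.99e-08) in GR2 cells, and PSMB10, the third immunoproteasome subunit, by 2.85 ± 0.21 (adjusted p = 4.45e-08). Under vehicle, GR3 cells had 11 of the 15 higher than GR2 cells and 12 higher than parental cells, with 0 lower in each. Of all genes tested, 15.6% were higher and 17.5% lower than in GR2 cells, and 9.77% and 11.1% than in parental cells. HLA-B, a class I heavy chain, was higher in GR3 than in parental cells by 2.89 ± 0.28 (adjusted p = 4.04e-06), and NLRC5, the activator of class I genes, by 1.76 ± 0.20 (adjusted p = 2.11e-05). Each tolerant population also had 10 of the 15 higher than parental cells and 1 lower. Shares of all genes tested were 9.39% and 9.64% in gefitinib-tolerant and 8.72% and 9.73% in WZ4002-tolerant cells. Vehicle HLA-B was 55.8 and 68.7 CPM in GR3, 56.6 and 69.8 CPM in gefitinib-tolerant and 51.1 and 83.55 CPM in WZ4002-tolerant cells. Parental cells had 7.95 and 7.04 CPM.

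Of 32 further interferon-responsive genes tested, 10 rose and 4 fell in GR3 cells, 20 rose and 5 fell in GR2 cells, 15 rose and 3 fell in gefitinib-tolerant cells and 16 rose and 3 fell in WZ4002-tolerant cells. In parental cells 18 rose and 3 fell under WZ4002, and 17 rose and 3 fell under gefitinib. The shares of all genes tested that rose and fell were 12.1% and 9.87% in GR3 and 27.4% and 28.3% in GR2 cells. They were 15.2% and 13.6% in gefitinib-tolerant and 17% and 15.6% in WZ4002-tolerant cells. In parental cells they were 25.1% and 22.3% under WZ4002 and 23.5% and 21.8% under gefitinib. The same shares apply to the sensing genes and negative regulators below. GBP2, a guanylate-binding GTPase, changed by 2.37 ± 0.31 (adjusted p = 0.000102) in GR3 and 5.18 ± 0.31 (adjusted p = 8.03e-09) in GR2 cells, and the response was smaller in GR3 by -2.82 ± 0.43 (adjusted p = 0.000633). Of 10 genes for sensing nucleic acids, 1 rose and 1 fell in GR3 cells and 4 rose and 3 fell in GR2 cells, which is near the shares of all genes tested (12.1% and 9.87% in GR3, 27.4% and 28.3% in GR2 cells). TLR3, an endosomal receptor for double-stranded RNA, changed by 3.02 ± 0.30 (adjusted p = 8.99e-07) in GR2 cells, and TRAF3, an adaptor of these receptors, by -0.95 ± 0.16 (adjusted p = 0.000136). Both tolerant populations had 3 sensing genes higher and 1 lower, and parental cells 2 higher and 3 lower under each drug. Of 8 negative regulators, 3 rose and 0 fell in GR3 cells and 3 rose and 2 fell in GR2 cells, where the phosphatase genes PTPN6 and PTPN11 changed by 1.30 ± 0.13 (adjusted p = 8.23e-07) and -1.20 ± 0.14 (adjusted p = 5.01e-06). Both tolerant populations had 2 regulators higher and 2 lower, and parental cells 4 higher and 2 lower under each drug.

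Drug action and cell identity were checked with marker genes. All 4 of DUSP6, ETV4, ETV5 and SPRY4, which read out ERK signalling downstream of EGFR, were lower with drug in each of the 6 drug comparisons. All 6 epithelial markers were among the listed genes, and their summed level was 3592 to 8211 CPM in drug libraries, against 2961 to 4190 CPM in vehicle libraries. They did not move alike, and 1 of the 6 was lower in each drug comparison. EPCAM changed by -1.003 ± 0.19 (adjusted p = 0.000379) in GR2 cells and fell in parental cells under each drug, and EGFR changed by -0.97 ± 0.24 (adjusted p = 0.0106) in GR3 cells and fell in both tolerant populations, while KRT8 changed by 2.06 ± 0.16 (adjusted p = 6.41e-08) in GR2 cells. Of 6 leukocyte markers only CD14 was listed, with 0.32 to 7.22 CPM in drug libraries, against 0.10 to 0.71 CPM in vehicle libraries, and it rose in GR2 cells by 2.01 ± 0.39 (adjusted p = 0.000414). The 2 listed of 3 endothelial markers summed to 4.69 to 38.0 CPM with drug, against 8.05 to 16.4 CPM with vehicle, and the 3 listed of 4 fibroblast markers to 7.39 to 18.9 CPM with drug, against 5.36 to 12.8 CPM with vehicle. VWF, an endothelial gene, rose by 0.88 ± 0.23 (adjusted p = 0.0119) in GR3, 0.92 ± 0.23 (adjusted p = 0.0027) in GR2 and 1.39 ± 0.23 (adjusted p = 0.000185) in parental cells under WZ4002, and CDH5 fell in the same parental comparison, -2.24 ± 0.35 (adjusted p = 0.000133). In gefitinib-tolerant cells CDH5 had 32.6 and 26.8 CPM under gefitinib, against 8.34 and 11.8 CPM under vehicle, and rose by 1.48 ± 0.35 (adjusted p = 0.00644), and VWF rose there by 0.64 ± 0.23 (adjusted p = 0.0452). The part of these markers in the changes was not tested.

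The highest group mean of each of the 43 genes fell mainly in 3 groups. It was in gefitinib-tolerant cells under gefitinib for 12 genes (27.9%), against 5.04% of all listed genes, in GR2 cells under WZ4002 for 11 (25.6%), against 13.1%, and in GR3 cells under WZ4002 for 10 (23.3%), against 10.6%. Replicate 2 of gefitinib-tolerant cells under gefitinib was the highest single library for 11 genes (25.6%), against 4.33% of all listed genes. For OAS2, IFI44, OASL, IFIT1 and IFI44L this library stood above replicate 1 of its group, at 2.55 and 0.34 CPM, 4.70 and 0.90 CPM, 6.72 and 3.65 CPM, 8.61 and 5.88 CPM and 0.88 and 0.12 CPM, replicate 2 before replicate 1.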

How the data were processed

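RNA from 22 libraries of PC9 cells, 2 in each of 11 groups, was polyA-selected and sequenced, per the labels' protocols, with a directional library kit. The authors deposited 1 table of CPM values. STAR, HTSeq and hg19 are named per the submitters' processing notes, without versions or settings. Of values under 300 CPM, 100% were whole multiples of 1 read within 0.0051 CPM, against 24.11% to 50.57% by chance. The planned edgeR test was not run, because 20 of 22 libraries did not pass a second, stricter test for whole reads. All 43 genes were found by the symbol assigned to their identifiers. They and the other lists were chosen with earlier results of these data known.

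Genes with at least 1 CPM in at least 2 libraries were kept (15485, leaving out 1680), log2(CPM + 1) was fitted with limma 3.58.1 (R 4.3.3) with 1 mean for each group and a spread shared over all groups (11 residual degrees of freedom), and p-values were adjusted by Benjamini-Hochberg within each of 17 comparisons. The fit was tested on simulated data. All replicate pairs differed by more than counting error, but not equally. The median standard deviation of log2 values within a pair ran from 0.0556 in GR2 vehicle to 0.181 in GR3 vehicle libraries. The shared spread gives each gene the same standard error in every comparison of 2 groups. That error may be too small where GR3 vehicle libraries enter and too large where GR2 vehicle libraries enter. Values in every library are given for up to 2 genes of each role with the largest changes with drug, and up to 2 between vehicle-treated populations, among those passing the test with a mean of at least 5 CPM in a compared group. Other genes given with values, such as IRF7, ISG15, IFIT1, SAMHD1 and USP18, were chosen after their values were seen. The alternatives comprised median-of-ratios scaling, leaving genes of low CPM in, a pseudocount of 0.1 and a replicate block. They also comprised the compared groups' own spread and each library left out. Chosen after seeing the data were limma-voom on reads recovered from the CPM and a term for 3 runs of columns. A new run began where the order of the groups stepped back. Runs were limited to 3, so the last column, GR2 vehicle replicate 2, was kept in run 3 although the order stepped back there.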

Additional observations from a re-analysis of the deposited data

Results flagged for a closer look

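The size of the drug response differed between populations, by the test of the difference itself, in the following cases, given as differences of log2 changes of CPM + 1. Between GR3 and GR2 cells under WZ4002 (GR3 minus GR2) the difference was -3.43 for IRF1, -2.88 for UBE2L6, -1.83 for PSMB9, -1.82 for PARP14, -1.74 for PARP9, -1.41 for SAMHD1, -1.36 for IFITM3, -1.28 for HERC6, -1.07 for DTX3L, -0.996 for PSMB8, -0.87 for PARP12 and -0.82 for IFIH1, and 1.24 for IFITM2. Between GR2 and parental cells (GR2 minus parental) it was 2.40 for UBE2L6, 1.81 for IRF1, 1.55 for IFITM3, 1.46 for PSMB9, 1.38 for PARP14, 1.30 for PARP9, 0.99 for ISG15 and 0.59 for ADAR. Between GR3 and parental cells (GR3 minus parental) it was 1.78 for IFITM2 and -1.61 for IRF1. This IFITM2 difference was 0.28 by limma-voom on recovered reads (adjusted p = 0.883 for IFITM2 response GR3 minus parental), and neither call held with the spread of the compared groups alone. Between WZ4002-tolerant and parental cells (WZ4002-tolerant minus parental) it was -1.92 for SAMD9 and -1.004 for SAMHD1. The parental libraries enter the last 3 of these comparisons, and the GR2 and GR3 libraries enter 2 each.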

How the results depend on the processing

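Of 231 calls of single genes, 135 held with every library left out, and none of the 231 changed direction except the IFITM2 response GR3 minus GR2, at -1.203 by limma-voom (adjusted p = 0.308) against 1.24. With the compared groups' own spread the number of genes called was 11 for GR2 against parental cells (4 in the shared fit), 7 for GR3 against parental (17), 9 for WZ4002 in GR3 (20) and 0 for the responses GR3 minus parental (2) and WZ4002-tolerant minus parental (2). The response GR2 minus parental gave 3 (8) with a term for runs of columns, and GR3 minus parental gave 1 by limma-voom and 1 with a pseudocount of 0.1. The cause was not tested in any of these cases. The compared groups' own spread rests on fewer libraries, whereas the other settings named here used all libraries.

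Leaving out single libraries gave 11 to 17 genes for WZ4002 in GR3, 14 to 27 for gefitinib-tolerant cells under gefitinib, 8 to 19 for WZ4002-tolerant cells under WZ4002, and 0 to 2 for WZ4002 against gefitinib. Between vehicle groups the ranges were 9 to 13 for GR3 against parental, 2 to 4 for GR2 against parental, 5 to 6 for gefitinib-tolerant against parental and 3 to 8 for WZ4002-tolerant against parental. For responses they were 8 to 18 (GR3 minus GR2), 3 to 8 (GR2 minus parental), 1 to 6 (GR3 minus parental), 0 to 4 (WZ4002-tolerant minus parental) and 0 to 1 (gefitinib-tolerant minus parental). Each omission leaves a group with 1 library, assumed to vary like the others.

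The replicate numbers were not taken to pair the samples, since the labels state no pairing. Correlations of same-numbered deviations were 0.134 to 0.633 where same-numbered libraries stand in the same run of columns. They were -0.262 to -0.002 in the other comparisons. Libraries of a run may therefore share variation that the main fit leaves out, and its source was not tested. With a term for the runs of columns, 28 of the 231 calls were lost. With a replicate block the response GR3 minus GR2 gave 17 genes (13), and 1 of the 231 calls was lost (SAMD9 in gefitinib-tolerant cells under gefitinib). The planned edgeR count test was not run. Counting error limits the precision of genes at low CPM.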
